A study of Mus musculus with 12 samples.

Results

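The transcription factors that drive the epithelial to mesenchymal transition (EMT) were followed in mouse mammary tumours through 9 genes: Zeb1, Zeb2, Snai1, Snai2, Snai3, Twist1, Twist2, Prrx1 and Foxc2. They were taken by symbol from the mRNA table, and all 9 were among its 22769 genes with values above or below 0. Of these genes 14098 had a mean log2 value of at least 4 and were tested, and 8 of the 9 factors were among them. Snai3 lay under that filter. Balb/c mice were inoculated with 4T1, a mammary carcinoma line of that strain which spreads to distant organs on its own, and tumours were collected 35 days later. The stress group underwent chronic restraint, 2 hours daily over 28 days, and the control group was left untreated. The tumour cells and the strain were the same in both groups, and the host was immunocompetent, so each tumour also held the cells of the mouse. There were 3 mRNA and 3 miRNA libraries per group. The labels do not state that the libraries came from separate mice, so the p-values measure the spread between these libraries, which may in part be technical.

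EMT factors are DNA-binding proteins that switch epithelial cells to a motile, mesenchymal state. ZEB and SNAIL proteins are zinc finger repressors that bind the E-box CAGGTG and recruit corepressors to genes such as Cdh1, which encodes the adhesion protein E-cadherin. TWIST proteins are basic helix-loop-helix factors that bind DNA as dimers with E proteins, PRRX1 is a homeobox factor of mesenchymal tissue, and FOXC2 is a forkhead factor of mesenchyme and vessels. The miR-200 family represses Zeb1 and Zeb2 through sites in their 3′ UTRs, and ZEB proteins in turn repress the miR-200 genes. Fibroblasts, pericytes and endothelial cells use several of these factors as well, so in a whole tumour their mRNA can come from tumour cells and from stroma.

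The miR-200 family falls into a pair of seed groups, and their sequences are shown because the strongest difference among the factors was in a gene that carries sites for both. The RefSeq mature sequences (GRCm38.p6) run 5′ to 3′, with the seed, bases 2 to 8, in capitals.

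miR-200b-3p: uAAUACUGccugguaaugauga

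miR-200c-3p: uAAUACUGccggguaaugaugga

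miR-429-3p: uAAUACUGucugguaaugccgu

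miR-200a-3p: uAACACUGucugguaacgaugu

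miR-141-3p: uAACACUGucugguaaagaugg

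The site that pairs with the first seed is CAGTATT and the site for the second is CAGTGTT. In the longest coding transcript of Zeb1 (GENCODE M21) the 3′ UTR of 2401 bases held 5 sites of the first kind and 4 of the second. The 3′ UTR of Zeb2 (4941 bases) held 5 and 4. That is 2.08 and 1.67 sites per kb in Zeb1 and 1.01 and 0.810 in Zeb2, against 0.109 and 0.150 per kb over the longest coding transcripts of 20962 genes. At least 1 site was present in 13.2% of these 3′ UTRs for the first kind and in 17.1% for the second. Snai2 held 1 site of each kind, Snai1 held 1 of the first and Foxc2 1 of the second. Snai3, Twist1, Twist2 and Prrx1 had no match of either kind. A match is a description of the sequence and says nothing on use. The first-kind sites of Zeb2, Snai1 and Snai2 are printed with the site in capitals, as transcribed, as examples of the match in each gene. Windows of Zeb1 are not printed here.

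Zeb2 site at 3′ UTR base 393: taccatacatCAGTATTttattatta

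Zeb2 site at 3′ UTR base 458: tacagtgcatCAGTATTacgattcct

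Zeb2 site at 3′ UTR base 820: gcacccgtgtCAGTATTagacgacta

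Zeb2 site at 3′ UTR base 905: ttaattttgtCAGTATTacaccaaac

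Zeb2 site at 3′ UTR base 1039: ctgtagtgtaCAGTATTatagttctt

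Snai1 site at 3′ UTR base 196: tcctacccctCAGTATTcatgaggtg

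Snai2 site at 3′ UTR base 427: accaaaggaaCAGTATTtcttcttaa

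On GRCm38 the Zeb2 windows lie on the minus strand, at chr2:44988165-44988190, chr2:44988100-44988125, chr2:44987738-44987763, chr2:44987653-44987678 and chr2:44987519-44987544 in the order printed. The Snai1 window lies at chr2:167542269-167542294 and the Snai2 window at chr16:14708713-14708738, both on the plus strand.

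The E-box CAGGTG, read on either strand as CAGGTG or CACCTG, was looked for in RefSeq promoter windows from 250 bases before to 50 after a gene's start. Of the 26 genes in a list of epithelial genes, 15 had such a window, and 13 of these 15 held the motif in at least 1 window. Cdh1 is in the list but had no such window, so it is not among the 15. Over all 27025 genes with a window 22.6% held it, and over all 32851 windows 20.2%. The list was drawn up partly from genes known as targets of these repressors, so the share describes the list. Among the factors 5 had a window and 1, Snai1, held the motif. Windows are shown for Ocln, the epithelial gene with the smallest p in the comparison of the groups, for Epcam and Cldn7, which code for an epithelial adhesion protein and a tight junction protein, and for Snai1 itself, with the motif in capitals.

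Ocln: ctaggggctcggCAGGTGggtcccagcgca

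Epcam: acccataaaaccCAGGTGtggaggagaagc

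Cldn7: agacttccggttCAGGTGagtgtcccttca

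Snai1: gcagcccaggcgCACCTGctccggtctcag

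On GRCm38.p6 these stand at chr13:100552549-100552578 (minus strand), chr17:87635948-87635977, chr11:69965352-69965381 and chr2:167538057-167538086 (plus strand), and the motif begins at positions -68, -19, -57 and -126 from an annotated start.

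The mRNA table holds normalized log2 values without read counts, so its depth is unknown, and the miRNA libraries held 1738056 to 3202224 counts. In the limma fit 0.0213% of the tested genes were called higher and 0.0142% lower in stress at an adjusted p of 0.05. An unadjusted p under 0.05 was reached by 17.4% of genes (8.26% higher, 9.15% lower), and the groups did not overlap in 24.3%. Markers of 4T1 and mammary epithelium were present in every library, with a summed log2 level of 15.40 to 15.54 in control and 15.39 to 15.55 in stress. Most stromal markers had lower means and most neutrophil markers higher means in stress, none past the threshold. The 12 fibroblast markers summed to 16.48 to 17.57 in control and 16.15 to 16.62 in stress (11 of 12 lower), the 8 pericyte and smooth muscle markers to 12.58 to 12.92 and 11.99 to 12.39 (8 of 8 lower), the 10 endothelial markers to 12.90 to 13.06 and 12.58 to 12.88 (9 of 10 lower), the 16 skeletal muscle markers to 12.92 to 14.35 and 11.79 to 13.29 (16 of 16 lower), and the 8 neutrophil markers to 10.68 to 10.84 and 11.16 to 11.87 (6 of 7 tested higher). The sums overlapped between the groups for fibroblast and skeletal muscle markers and did not for the other 3 lists. Even so, 4 of the 12 fibroblast and 4 of the 16 skeletal muscle markers lay wholly below control in stress. Over all tested genes 12.3% did so. No marker in these 5 lists was at 0.

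Zeb1 had the largest difference and the smallest p of the factors. Zeb1, on chromosome 18 (5591860 to 5775467, plus strand, GRCm38), encodes a repressor of Cdh1 and of the miR-200 genes. In control replicates 1 to 3 its log2 values were 9.34, 9.25 and 8.83, and the stress replicates gave 8.42, 8.67 and 8.32 in the same way. All 3 stress libraries lay below all 3 control libraries, and the gap between the groups, from 8.83 to 8.67, was smaller than the spread within control. The mean was 9.14 ± 0.27 (SD, n = 3) in control and 8.47 ± 0.18 in stress, a difference of -0.67 ± 0.15 (SE, 95% interval -1.02 to -0.32). This is 1.59-fold lower, with an unadjusted p of 0.00258 and a limma adjusted p of 0.120, so it did not pass the threshold. Groups with stress wholly below control occurred in 12.3% of all tested genes. The range of Zeb1 over the 6 libraries, 1.02, was larger than that of 97.6% of the 2368 genes whose mean was within 0.5 of its own.

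With the mean fibroblast marker level as a covariate the Zeb1 difference was -0.74 (adjusted p = 0.498), and with the skeletal muscle level it was -0.71 (adjusted p = 0.546). The summed neutrophil level split the libraries as Zeb1 did, in the other direction, with 10.83, 10.68 and 10.84 in control and 11.48, 11.16 and 11.87 in stress. The summed pericyte and smooth muscle level, at 12.58, 12.74 and 12.92 in control and 12.39, 12.14 and 11.99 in stress, and the endothelial level were wholly lower in stress. Over all libraries r with Zeb1 was -0.90 for the neutrophil sum, 0.67 for the pericyte and smooth muscle sum and 0.28 for the endothelial sum. The part of these 3 lists in the Zeb1 result was not tested. In bulk RNA, fewer cells of a type and less mRNA per cell cannot be told apart. Zeb1 shares 198 exon bases with the opposite-strand transcript Gm10125, and no source used here says whether the counting used strand.

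The groups overlapped for the second ZEB gene. Zeb2 (chromosome 2, 44983632 to 45117395, minus strand) codes for a repressor with the same E-box specificity. It stood at 11.23, 11.37 and 11.19 in control and at 11.38, 11.38 and 11.28 in stress. The stress libraries were among the control values or just above, within a whole range of 0.187. The difference was 0.08 ± 0.06 (SE, 95% interval -0.07 to 0.23, adjusted p = 0.530). It was 0.14 without control replicate 2, 0.05 without control replicate 3, 0.13 and 0.17 with the muscle and fibroblast covariates and 0.04 with quantile normalization, and passed the threshold in none of these. Its range was larger than that of 33.1% of genes of like level. Zeb2 shares 653 exon bases with its antisense gene Zeb2os, whose reads cannot be told apart without strand.

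The distance between the pair was wider in each stress library than in any control library. Zeb2 minus Zeb1, a difference of log2 values within a library, was 1.89, 2.13 and 2.36 in control and 2.96, 2.71 and 2.96 in stress. All stress values lay above all control values, with means of 2.12 ± 0.24 (SD, n = 3) and 2.88 ± 0.14. The shift of 0.75 gave an exact two-sided permutation p of 0.1, the smallest that 3 libraries against 3 can give. It is made mostly of the Zeb1 difference of -0.67, beside 0.08 for Zeb2. The separation of the groups thus restates that of Zeb1 and is no further result. The corresponding shift was -0.04 for Snai1 minus Snai2 (exact permutation p = 0.8) and 0.02 for Twist1 minus Twist2 (exact permutation p = 0.9).

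**Figure D1:**
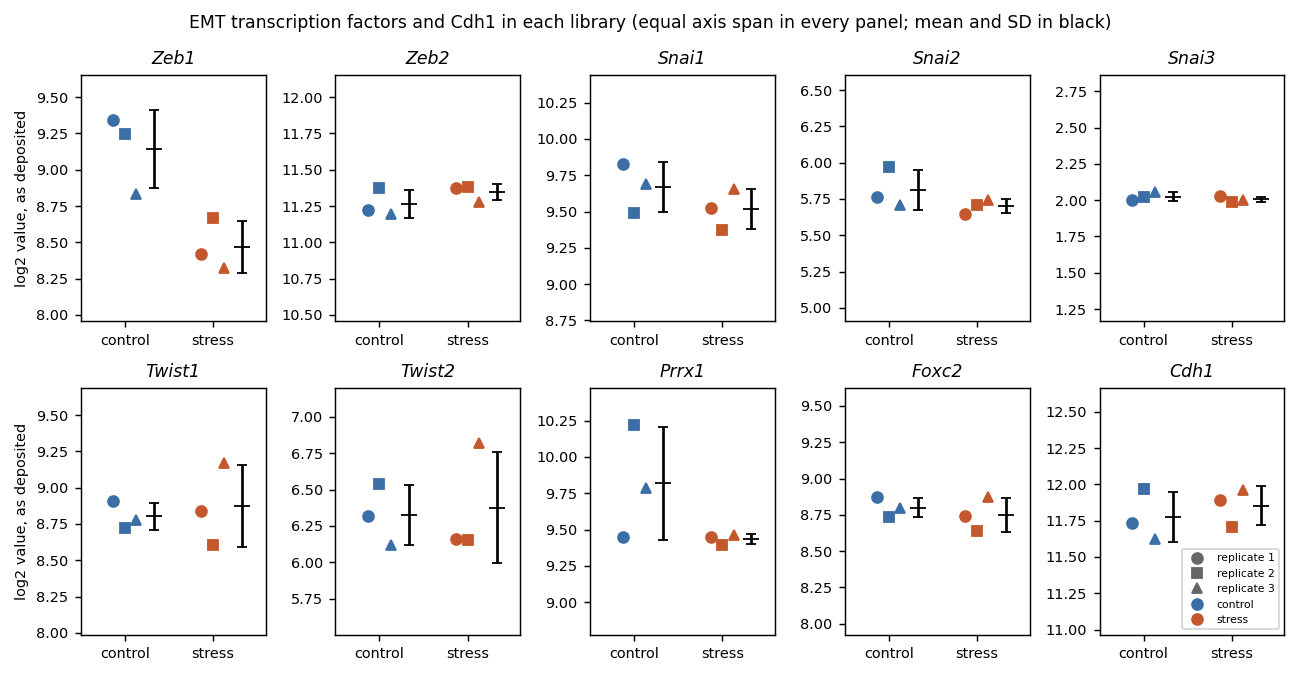
Log2 values as deposited (vertical axes, each spanning the same distance) of the 9 factors and Cdh1 in 3 control libraries (blue) and 3 stress libraries (orange), with symbols for replicate numbers and mean ± SD in black. Zeb1 is the only panel in which the colours do not overlap, with control from 8.83 to 9.34 and stress from 8.32 to 8.67.

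The groups overlapped for all 3 SNAIL genes. Snai1 (chromosome 2, 167538195 to 167542814, plus strand), an early inducer of EMT whose protein is short-lived, was at 9.83, 9.49 and 9.69 in control and at 9.52, 9.38 and 9.65 in stress. The groups overlapped, although each stress library was below the control mean, and the difference was -0.15 ± 0.10 (SE, 95% interval -0.40 to 0.10, adjusted p = 0.484). With the fibroblast covariate it was -0.35 (adjusted p = 0.497) and with the muscle covariate -0.32 (adjusted p = 0.552), over 1.5 times its size in each case. Leaving out control replicate 2 gave -0.24, leaving out control replicate 1 gave -0.07 and leaving out stress replicate 2 gave -0.08, so its size rested on single libraries. Snai2 (chromosome 16, 14705852 to 14709385, plus strand), which encodes SLUG, a factor of mammary stem and basal cells, was at 5.76, 5.97 and 5.71 in control and 5.65, 5.71 and 5.74 in stress. The groups overlapped and the difference was -0.11 ± 0.08 (SE, adjusted p = 0.481). Control replicate 2 was the highest Snai2 library, and without it the difference was -0.04 (adjusted p = 0.818). Snai3 (chromosome 8, 122454208 to 122460733, minus strand), the least studied SNAIL paralogue, stayed between 1.99 and 2.06 in all 6 libraries. In the fit without a filter its difference was -0.02 ± 0.02 (SE, adjusted p = 0.747). Genes at this level varied little in general, with a median range of 0.0645 in the 1232 genes within 0.5 of it. Little could thus be seen of a change in Snai3.

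The TWIST genes stood highest in 1 stress library and overlapped otherwise. Twist1 (chromosome 12, 33957671 to 33959829, plus strand), a mesoderm factor that promotes invasion and spread of mammary tumours, was at 8.91, 8.72 and 8.77 in control and 8.84, 8.61 and 9.17 in stress. The stress libraries included both the lowest and the highest value. Twist2 (chromosome 1, 91801461 to 91848028, plus strand), a dermal and mesenchymal paralogue, was at 6.32, 6.54 and 6.12 in control and 6.16, 6.15 and 6.82 in stress. Stress replicate 3 was thus the highest library for both genes, and the stress SDs of 0.281 and 0.384 compare with 0.0948 and 0.209 in control. The differences were 0.07 ± 0.14 (SE, 95% interval -0.25 to 0.39, adjusted p = 0.827) for Twist1 and 0.05 ± 0.20 (SE, 95% interval -0.41 to 0.51, adjusted p = 0.920) for Twist2. Without stress replicate 3 they were -0.08 and -0.17, so the sign of each rested on that library. The sign for Twist2 also turned without control replicate 3 (-0.05). Stress replicate 3 also had the lowest summed skeletal muscle level (11.79) and the highest neutrophil level (11.87). With the skeletal muscle covariate both signs turned, to -0.18 for Twist1 (adjusted p = 0.702) and -0.24 for Twist2 (adjusted p = 0.755). The part of the neutrophil level in these values was not tested. Twist2 shares 1477 exon bases with the opposite-strand gene Gm29100.

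Prrx1 had the second largest difference, and it went with the fibroblast markers. Prrx1 (chromosome 1, 163245119 to 163313710, minus strand) is a homeobox gene of limb and craniofacial mesenchyme and of fibroblasts. It stood at 9.45, 10.22 and 9.78 in control and at 9.45, 9.39 and 9.46 in stress. The stress libraries were within 0.1 of each other and of control replicate 1, while control replicates 2 and 3 stood above. The difference was -0.38 ± 0.18 (SE, 95% interval -0.80 to 0.03, adjusted p = 0.316). The summed fibroblast level was 16.48, 17.57 and 17.13 in the control libraries and 16.62, 16.41 and 16.15 in the stress libraries, so the same pair of control libraries stood highest. With the fibroblast covariate the Prrx1 difference was 0.02 (adjusted p = 0.974), and without control replicate 2 it was -0.18 (adjusted p = 0.469). Zeb1 had its highest value in control replicate 1, where the fibroblast sum was the lowest of the control libraries. Even so, 4 of the 12 fibroblast markers lay wholly below control in stress, as Zeb1 did, against 12.3% of all tested genes. Over the 6 libraries r with the fibroblast sum was 0.94 for Prrx1 and 0.56 for Zeb1. With the sum of 6 adipocyte markers, 2 of them over the filter, r was 0.90 for Prrx1 and 0.67 for Zeb1. The adipocyte sum was 9.11, 9.83 and 9.52 in control and 9.03, 8.82 and 8.62 in stress. Its part in these values was not tested. Each sum adds values before the logarithm, so its most abundant markers weigh most. The fibroblast covariate is instead the mean of the 12 log2 values, in which each marker weighs alike.

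**Figure D2:**
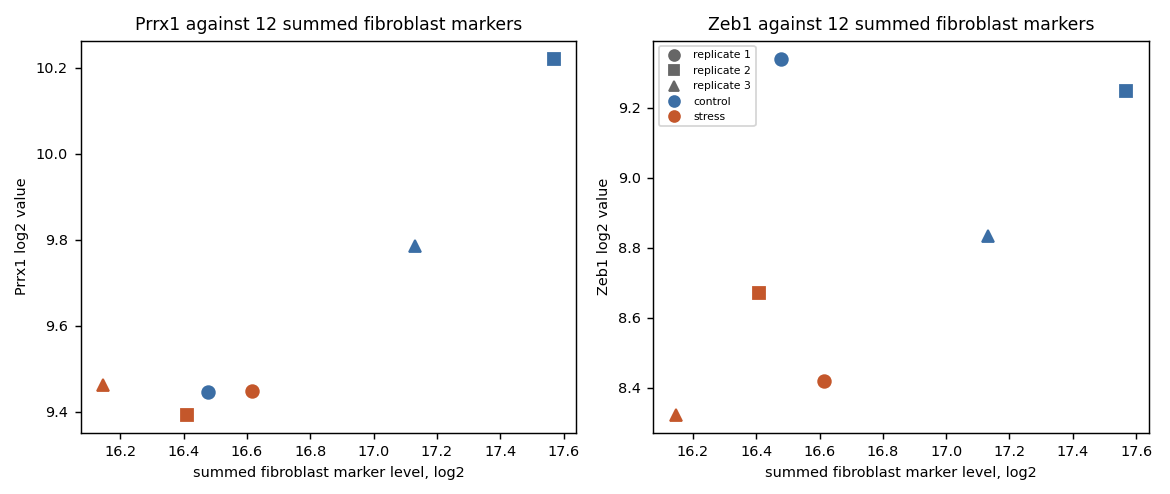
Log2 values of Prrx1 (left) and Zeb1 (right) against the log2 sum of 12 fibroblast markers in the same library, with control in blue and stress in orange. Control replicate 1, at a fibroblast level of 16.48, sits with the stress libraries for Prrx1 (9.45) and above all other libraries for Zeb1 (9.34). The most abundant markers weigh most in the sum, and 4 of the 12 markers lay wholly below control in stress.

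Foxc2 (chromosome 8, 121116171 to 121118895, plus strand), tied to late EMT and to lymphatic vessels, had a range of 0.234. Its values were 8.87, 8.73 and 8.80 in control and 8.74, 8.64 and 8.87 in stress, with overlapping groups. The difference was -0.05 ± 0.08 (SE, 95% interval -0.23 to 0.13, adjusted p = 0.763).

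Of the 8 tested factors, 3 had a higher and 5 a lower mean in stress, with a median difference of -0.08 against 0.0014 over all tested genes. None passed the threshold in limma (0.0355% of all genes did, in either direction) and 1 of the 8, Zeb1, had an unadjusted p under 0.05. Groups did not overlap for 1 of the 8. The summed level of the 9 factors was 12.43 to 12.59 in control and 12.38 to 12.43 in stress. The counts of 1 in 8 are near the shares over all genes.

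**Figure D3:**
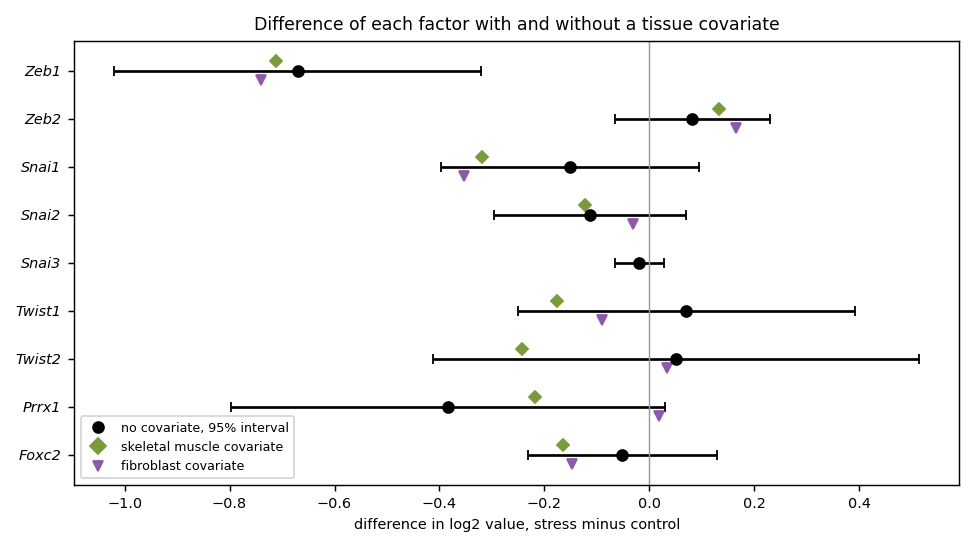
Difference in log2 value, stress minus control (horizontal axis), for the 9 factors, with 95% intervals from limma in black and the estimates with a skeletal muscle (green) or fibroblast (purple) covariate, Snai3 being from the fit without a filter. Zeb1 lies between -0.74 and -0.67 in the 3 fits, while Prrx1 goes from -0.38 to 0.02 with the fibroblast covariate.

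Levels were set side by side per kb of the longest coding transcript, as the power of 2 of the deposited value divided by that length. The deposited scale is not known to be free of length, and other isoforms would move the order. On this scale, as log2 per kb, Snai1 was the highest factor in every library (8.68 to 9.13). Zeb2 (8.01 to 8.19) and Twist1 (7.91 to 8.47) came next and overlapped. Foxc2 (7.19 to 7.42) overlapped with Prrx1 (6.69 to 7.51), and Prrx1 with Zeb1 (5.79 to 6.80). Twist2 (4.78 to 5.48) and Snai2 (4.63 to 4.95) overlapped as well, and Snai3 was last (1.28 to 1.35). Cdh1, at 9.48 to 9.82, stood above all 9 factors in every library.

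Each factor was then related to Cdh1, since loss of E-cadherin is the classical readout of EMT. Cdh1 (chromosome 8, 106603351 to 106670246, plus strand) was at 11.73, 11.97 and 11.63 in control and 11.89, 11.71 and 11.96 in stress, with overlapping groups and a difference of 0.08 ± 0.10 (SE, 95% interval -0.16 to 0.32, limma adjusted p = 0.727). That difference was 0.0038 without control replicate 3, 0.02 without stress replicate 3, 0.17 without control replicate 2 and 0.15 without stress replicate 2, and it was 0.0082 with the muscle covariate, 0.17 with the fibroblast covariate and 0.04 with quantile normalization. Over the 6 libraries, which span 0.341 in Cdh1, none of the 8 relations had an exact permutation p under 0.05 by Pearson's r. Over all genes 4.26% did so against Cdh1, and none of 14097 passed after adjustment over all of them. For Zeb1, r was -0.23 (exact permutation p = 0.613, adjusted over all genes 0.988) and rho was -0.14 (exact permutation p = 0.803, adjusted 1). Without control replicates 1 and 2, the libraries farthest from its median, r was -0.996 over the 4 that remained, and as deviations from the group means over all 6 it was 0.07. The size of this relation thus rested on which libraries entered. For Snai1, r was -0.22 (exact permutation p = 0.676) and rho -0.26 (0.658).

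The other 6 relations were positive, opposite in sign to repression. Twist2 had the largest, with r = 0.75 (exact permutation p = 0.0681, adjusted over all genes 0.988) and rho = 0.89 (exact permutation p = 0.0333, adjusted 1), against 2.32% of genes under 0.05 by rho. Without any single library r stayed between 0.69 and 0.92, and as deviations from the group means it was 0.76. Without both stress replicate 3 and control replicate 2, the libraries farthest from the Twist2 median, r was 0.10. That omission also narrows the range of Twist2. Zeb2 had r = 0.52 (exact permutation p = 0.249), rho = 0.26 (0.658) and, without control replicates 1 and 3, r = -0.50. Twist1 had r = 0.45 (exact permutation p = 0.407) and rho = 0.26, Snai2 r = 0.44 (exact permutation p = 0.436) and rho = 0.54, Prrx1 r = 0.27 (exact permutation p = 0.651) and rho = 0.43, and Foxc2 r = 0.13 (exact permutation p = 0.813) and rho = 0.09. Without the 2 farthest libraries r was -0.33, 0.45, 0.76 and -0.70 for these 4, and -0.62 for Snai1. Each group has 3 libraries, too few for a relation within it.

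**Figure D4:**
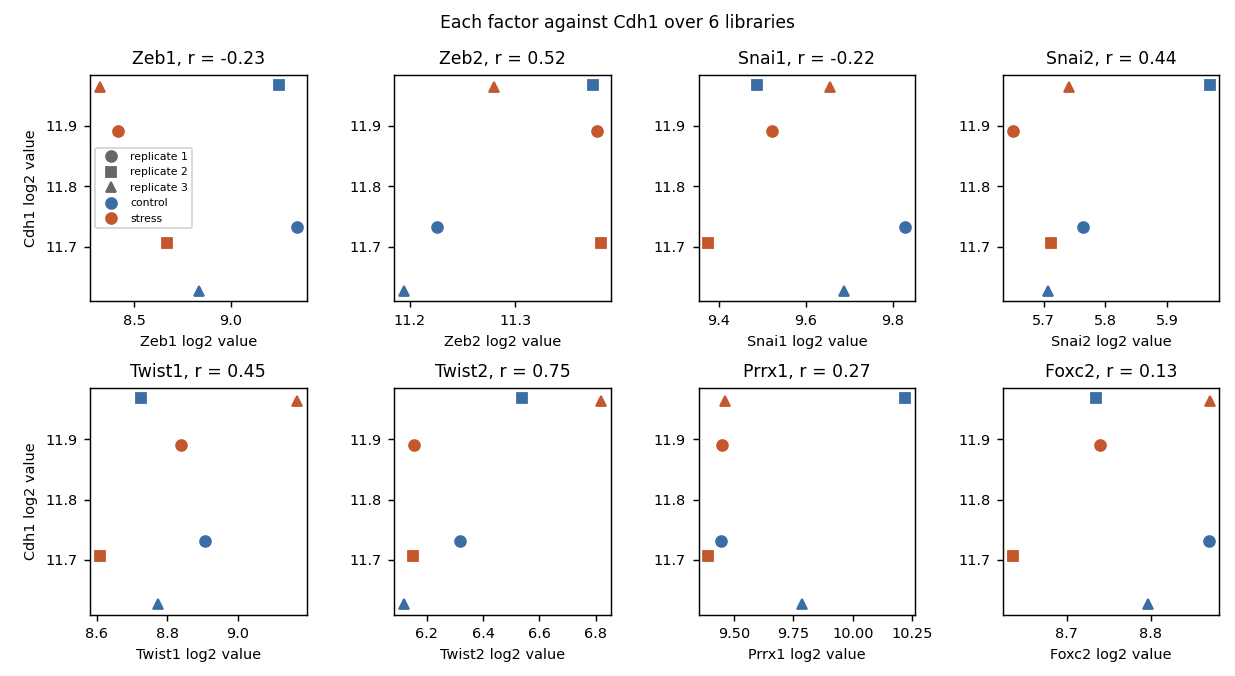
Cdh1 log2 value (vertical) against each of 8 factors (horizontal) in 3 control (blue) and 3 stress (orange) libraries, with Pearson's r above each panel. The coefficients run from -0.23 for Zeb1 to 0.75 for Twist2, and Cdh1 itself spans 11.63 to 11.97.

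The genes whose values were most like a factor's over the 6 libraries are given as a description. For Zeb1 they were Psmc5 (r = 0.99), Rab1b (0.99) and Ppip5k2 (0.989), whose own differences were -0.16, -0.10 and -0.16. For Prrx1 they were Adamts2 (r = 0.997), a procollagen-processing protease, Islr2 (0.991) and Epb41l3 (0.99), with differences of -0.42, -0.13 and -0.33. For Zeb2 they were Ubn1 (0.997), Mmaa (0.993) and Bbs7 (0.991), for Snai1 Pabpn1 (0.993), AW209491 (0.992) and Zcrb1 (0.991), and for Snai2 Psat1 (0.987), Gm9775 (0.980) and Ppfibp1 (0.979). For Twist1 they were Sccpdh (0.993), Noc2l (0.99) and Pabpc4 (0.989), for Twist2 Cdk17, Cox4i1 (0.999) and Pip5k1a (0.996), and for Foxc2 Otub2 (0.99), Rundc1 (0.99) and D230025D16Rik (0.987). Each was picked as the highest r among all tested genes. Among the factors, the highest r was 0.92 between Snai1 and Foxc2 and the lowest -0.88 between Zeb2 and Snai1, while Zeb1 and Zeb2 had r = -0.24.

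No listed target or mesenchymal gene passed the threshold. Of 24 tested epithelial genes, 14 were higher and 10 lower, with a median difference of 0.06 and 0 past the threshold in limma. An unadjusted p under 0.05 was reached by 2 of them, against 17.4% of all tested genes. Ocln, the tight junction protein occludin, whose promoter window holds the E-box printed above, was at 7.39 ± 0.11 (SD, n = 3) in control and 7.69 ± 0.03 in stress (0.31 higher, adjusted p = 0.135), and its groups did not overlap. Ovol1, a repressor of EMT factors, was 0.12 higher (adjusted p = 0.274) and the desmosomal protein gene Dsp 0.21 higher (adjusted p = 0.373), with overlapping groups. Of 18 mesenchymal genes, 6 were higher and 12 lower, with a median of -0.11 and 0 past the threshold. An unadjusted p under 0.05 was reached by 5, all lower, against 9.15% lower over all tested genes. Cdh11, a cadherin of mesenchymal cells, went from 10.10 ± 0.07 (SD, n = 3) to 9.13 ± 0.20 (-0.97, adjusted p = 0.0607). Tenascin C (Tnc), a matrix glycoprotein, went from 14.55 ± 0.21 to 13.92 ± 0.19 (-0.64, adjusted p = 0.116). The groups did not overlap for these 2 genes alone of the 18, both lower, against 12.3% lower over all tested genes. The fibroblast sums overlapped, with 16.48 in control replicate 1 and 16.62 in stress replicate 1, but 4 of the 12 fibroblast markers lay wholly below control. Over all tested genes 12.3% did so. Fits of these 2 genes with the fibroblast covariate are not given here, and the cause of their differences was not tested. Sparc, a matrix glycoprotein, was 0.42 lower (-0.42, adjusted p = 0.229).

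Partners of the factors at the protein level gave the following counts, with 0 past the threshold in limma in every list. Of 18 corepressors 9 were higher and 9 lower, the median was -0.02, and 6 had an unadjusted p under 0.05, 2 higher and 4 lower. Over all tested genes 8.26% had such a p and were higher, and 9.15% lower. Ezh2, the methyltransferase of Polycomb complex PRC2, went from 10.14 ± 0.05 (SD, n = 3) to 9.89 ± 0.06 (-0.25, adjusted p = 0.120). The histone deacetylase Hdac2 (-0.20, adjusted p = 0.170) and the methyltransferase Suv39h1 (-0.21, adjusted p = 0.186) also lay wholly below control. Of 19 kinases, ubiquitin ligases and deubiquitinases that act on the proteins, 9 were higher and 10 lower, with a median of -0.01. An unadjusted p under 0.05 was reached by 2 of the 19, against 17.4% of all genes. Fbxl5, a ubiquitin ligase subunit that binds SNAI1 and senses iron, was 0.34 higher (adjusted p = 0.201), Cop1 0.15 higher (adjusted p = 0.237) and the kinase Csnk1e 0.12 higher (adjusted p = 0.312), each with all stress libraries above control. The groups did not overlap for 9 of the 19 genes, 6 higher and 3 lower, against 12.1% and 12.3% of all genes.

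Among 7 tested helix-loop-helix partners and inhibitors of TWIST, 4 were higher and 3 lower. The inhibitors Id2 and Id1 moved in opposite directions, Id2 by 0.27 (adjusted p = 0.180) and Id1 by -0.28 (adjusted p = 0.235), each without overlap of the groups. The E protein gene Tcf3 was at -0.09 (adjusted p = 0.440), with stress wholly below control. Of 27 upstream ligands, receptors and effectors 15 were higher and 12 lower, with a median of 0.01. Against 17.4% of all genes, 3 of the 27 had an unadjusted p under 0.05. These were Stat3 (0.25 higher, adjusted p = 0.138), the receptor gene Notch1 (-0.45, adjusted p = 0.240) and the PDGF receptor gene Pdgfrb (-0.32, adjusted p = 0.270), which pericytes also express. Of 16 tested further EMT-linked factors, 9 were higher and 7 lower, with a median of 0.02. Prrx2, the paralogue of Prrx1, was at -0.24 (adjusted p = 0.153) and the T-box gene Tbx3 at -0.37 (adjusted p = 0.164), both with stress wholly below control. The forkhead gene Foxq1 was 0.47 higher (adjusted p = 0.212), with overlapping groups. Of the 16 genes 4 lay wholly below control, against 12.3% of all genes. An unadjusted p under 0.05 was reached by 5, 3 higher and 2 lower, against 17.4% of all genes. Gsc was listed at 0 in all libraries.

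All 5 guide strands of the miR-200 family had higher means in stress, and none passed the threshold. In CPM (counts scaled by library size), miR-200a-3p was at 1709, 1014 and 815 in control and at 2028, 1771 and 1463 in stress. Its difference was 0.57 ± 0.29 on the log2 scale (SE, edgeR adjusted p = 0.266). Control replicate 1 lay among the stress libraries, above the lowest of them. The seed partner miR-141-3p, on chromosome 6, was at 102.1, 41.6 and 37.8 CPM in control and 146.2, 92.9 and 106.1 in stress, a difference of 0.94 ± 0.41 (SE, adjusted p = 0.214).

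The other seed group was also higher in stress by its means. miR-200b-3p was at 1679, 1539 and 954 CPM in control and 2419, 1700 and 1627 in stress (0.46 ± 0.26, SE, adjusted p = 0.309). miR-200c-3p was at 514, 426 and 287 in control and 730, 490 and 578 in stress (0.55 ± 0.26, SE, adjusted p = 0.244), and miR-429-3p at 264, 203 and 149 in control and 315, 303 and 258 in stress (0.51 ± 0.24, SE, adjusted p = 0.242). In each of the 5 the groups overlapped through control replicate 1, and every stress library was above the control mean. The 5 miRNAs come from 2 clusters, on chromosomes 4 and 6, so they are not 5 separate observations. The family summed to 3245 ± 1012 CPM (SD, n = 3) in control and 4676 ± 849 in stress. Its median difference was 0.55, against 0.02 over all 462 miRNAs tested. Without control replicate 1 miR-200a-3p, miR-141-3p and miR-429-3p passed the threshold, with 82 miRNAs called in all. With no filter on low counts miR-200a-3p and miR-141-3p passed it as well, among 69 called.

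Over all miRNAs edgeR called 0, DESeq2 called 32, and 23.8% had an unadjusted p under 0.05 in edgeR. Of the passenger strands, miR-200b-5p was 0.72 higher (adjusted p = 0.181) on 13 to 32 counts per library, and miR-200a-5p 0.18 higher (adjusted p = 0.681). miR-205-5p, which also targets the ZEB genes, had 1 to 40 counts and lay under the filter. The tables give no label that ties an mRNA library to a miRNA library of the same tumour, so no relation was computed between Zeb1 and the family.

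Among other miRNAs reported to target EMT factors, 4 of 12 tested were higher and 8 lower, and 4 had stress wholly below control (14.3% of all tested miRNAs did). miR-34b-5p, whose seed group is known to repress Snai1, was at 69.6, 148.9 and 143.5 CPM in control and at 52.5, 47.6 and 37.9 in stress, a difference of -1.39 ± 0.32 (SE, 2.62-fold lower, edgeR adjusted p = 0.138). Its cluster partner miR-34c-5p differed by -1.16 (adjusted p = 0.165), while miR-34a-5p, from a separate gene, differed by 0.06 (adjusted p = 0.911). The 3′ UTR of Snai1 held 1 match to the miR-34 site CACTGCC, which 14.1% of 3′ UTRs hold, and Snai1 mRNA differed by -0.15. miR-214-3p was at 101.2, 276.2 and 261.8 CPM in control and 80.5, 90.2 and 67.0 in stress (-1.43 ± 0.37, SE, adjusted p = 0.144). It is processed with miR-199a from a transcript that TWIST1 is known to activate, and miR-199a-5p differed by -0.98 (adjusted p = 0.181) and miR-199a-3p by -0.93 (adjusted p = 0.224). Control replicate 1 was the lowest control library for these 3 miRNAs. Twist1 itself differed by 0.07.

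miR-34b-5p: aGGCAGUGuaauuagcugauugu

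miR-214-3p: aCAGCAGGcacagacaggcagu

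miR-337-3p: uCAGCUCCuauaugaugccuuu

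These 3 are printed, with the seed in capitals, because they had the smallest p-values among the listed miRNAs. miR-337-3p, which the study's title names, had 11, 48 and 22 counts in control and 3, 5 and 2 in stress, or 5.04, 17.5 and 7.17 CPM against 1.13, 2.22 and 1.26. The groups did not overlap, and the difference was -2.65 ± 0.63 (SE, adjusted p = 0.138) on very few reads. DESeq2 called each of these 3 miRNAs, and so did edgeR without a filter on low counts and without control replicate 1. Among miRNAs that EMT factors are known to induce, miR-10b-5p, a target of TWIST1, differed by -0.18 (adjusted p = 0.555) and miR-21a-5p by 0.02 (adjusted p = 0.911). miR-221-3p (0.43, adjusted p = 0.187) and miR-222-3p (0.40, adjusted p = 0.247) stood higher. Muscle-specific miR-1a-3p, a reported regulator of Snai2, ran from 110.5 to 57031 CPM, lowest in stress replicate 3, and skeletal muscle markers were lowest in the mRNA library of that number, which the labels do not tie to the same tumour.

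**Figure D5:**
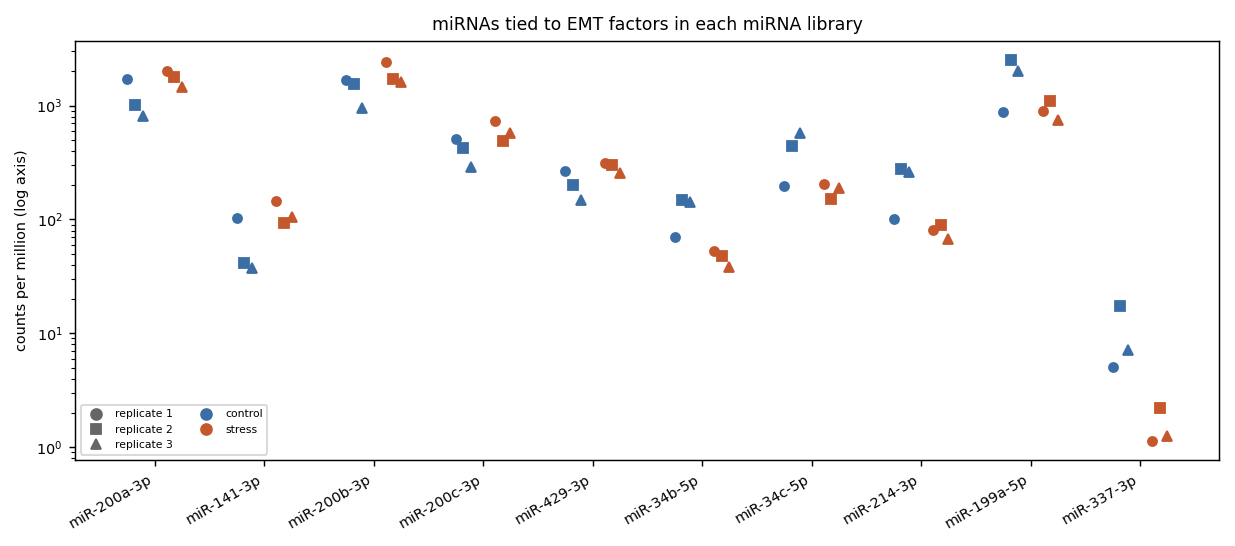
CPM on a log axis of 10 miRNAs in 3 control (blue) and 3 stress (orange) miRNA libraries, with symbols for replicate numbers. The miR-200 family lies higher in stress with control replicate 1 among the stress libraries, and miR-34b-5p, miR-214-3p and miR-337-3p lie wholly below control.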

How the data were processed

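The authors deposited an mRNA table of normalized log2 values, although its name calls them raw counts. They were fractional and ran from -1.97 to 17.85. No source names the base of the logarithm, and base 2 was assumed. A miRNA table of whole counts per mature miRNA was deposited as well. Per the submitters' processing notes bcl2fastq, kallisto 0.46.1 and mm10 were used, and the step from kallisto to these values and the miRNA counting tool are not given in the sources used here. Rows at 0 in all libraries (12658) and rows with a date for a symbol (26) were left out. Differences came from limma 3.58.1 (variance trend, robust) in R 4.3.3 and, for miRNAs, from edgeR 4.0.16 (TMM, filterByExpr, quasi-likelihood), with DESeq2 1.42.0 as an alternative. For a mature miRNA on several precursor rows the row with the highest total was kept. P-values were two-sided and adjusted (Benjamini-Hochberg) across every feature of a fit, with 0.05 as the threshold. Errors of miRNA differences were derived from the difference and the F statistic. Weak genes such as Snai3 and those of like level had narrow ranges. No source used here says whether values at low expression were drawn towards the gene mean. If they were, differences of weak genes are understated. Fits were also run on simulated data, and the outcome is not given here. Named genes were the factors, Cdh1, the miR-200 family, miR-337-3p and, per list, up to 4 called members or else the 3 with the smallest p (of marker lists only sums and counts are given). Other miRNAs were named after their values were seen. The members and lists were chosen with earlier results of these data known. Sequences came from RefSeq (27 of 32 listed miRNAs matched) and, for 3′ UTRs, GENCODE M21 on GRCm38, the assembly of mm10.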

Additional observations from a re-analysis of the deposited data

How the results depend on the processing

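No factor passed the threshold under any of the 14 alternatives, and Zeb1, Zeb2, Snai1 and Snai2 kept their direction in all that included them. Zeb1 ran from -0.82 (without control replicate 3) to -0.57 (without control replicate 1). The 5 genes called in all became 11 with a mean of at least 6, 8 with quantile normalization, 2 with no variance trend, 0 with either covariate and 0 to 5 without single libraries (0 without control replicate 1, control replicate 3, stress replicate 1 or stress replicate 3). For miRNAs 0 became 32 in DESeq2, 69 with no filter and 0 to 82 without single libraries (82 without control replicate 1). By rho, 1 factor (Twist2) related to Cdh1 at an unadjusted p under 0.05, against 0 by r. Correlations of same-numbered deviations from the group means were -0.08, 0.08 and -0.02 for mRNA and -0.48, 0.32 and -0.13 for miRNA. Deviations of 3 libraries sum to 0 in each group, so these values cannot decide whether replicate numbers pair the libraries. With a replicate block 0 genes and 0 miRNAs were called, and Zeb1 had a limma unadjusted p of 0.000697 and an adjusted p of 0.178. With a skeletal muscle covariate the sign turned for Twist1 (-0.18), Twist2 (-0.24) and the markers Adgre1 (0.055), Cd3e (0.016) and Krt18 (-0.0063), and with a fibroblast covariate for Twist1 (-0.090) and Prrx1 (0.017). Without single libraries the sign was not fixed for Twist1 (-0.078 to 0.20), Twist2 (-0.17 to 0.16), Foxc2 (-0.11 to 0.0046), Adgre1 (-0.23 to 0.0028), Cd3e (-0.20 to 0.0045), miR-200a-5p (-0.0075 to 0.42), miR-34a-5p (-0.23 to 0.29), miR-30a-5p (-0.13 to 0.024), miR-30b-5p (-0.13 to 0.00097) and miR-21a-5p (-0.074 to 0.15). The cause was not tested. Depth of the mRNA libraries is unknown, and miR-337-3p rests on 2 to 48 counts per library.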
